A study of Mus musculus with 4 samples.

Results

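Transcript levels of 43 genes that build autophagosomes or control them through folliculin, the MiT/TFE transcription factors and mTORC1 were followed in mouse peritoneal macrophages given 3 fatty acids. The genes were taken from a list by name, chosen with earlier results of these data known. Of the 43, 42 had a probe that the platform annotation assigns to exactly 1 gene, out of 19938 genes so measured. The cargo receptor gene Optn had none and is not analysed here. All 42 lay above the brightness filter, log2 7.09, in all 4 arrays, so that none passed through the array in which it was high.

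The cells came from wild-type C57BL/6 mice aged 8 to 12 weeks and were collected 3 days after 1 mL of 4% thioglycolic acid was injected into the peritoneum, which draws in monocyte-derived macrophages. Adherent cells were treated for 6 h with 500 µM of a fatty acid bound to bovine serum albumin, or with the control. Palmitic acid is saturated, with 16 carbons. Oleic acid, with 18 carbons, is monounsaturated, and linoleic acid, also with 18, has 2 double bonds. The sample label calls the control albumin only, while the protocol describes its vehicle as ethanol with KOH. Each group is 1 array hybridised with RNA pooled from 3 samples, and the labels do not say whether these came from separate mice. With 1 array per group no test, standard error or interval of a difference exists. Differences are given in log2, each between 2 arrays.

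Autophagy starts when the ULK1 kinase complex, held inactive by mTORC1 in fed cells, is released and activates the VPS34 lipid kinase complex on a forming membrane. Ubiquitin-like conjugation then attaches LC3 and GABARAP proteins to that membrane, and cargo receptors bridge them to the material to be degraded. Folliculin, with its partner FNIP1 or FNIP2, is a GTPase-activating protein for RagC and RagD at the lysosome, a step that lets mTORC1 retain TFEB and TFE3 in the cytoplasm. In macrophages the same machinery clears lipid droplets, damaged organelles and microbes.

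Median values over all probes lay between log2 7.07 and 7.13 in the 4 arrays, and array pairs correlated between r = 0.991 and r = 0.996. All 10 macrophage markers were above the filter, with Csf1r at 11.98, 12.18, 12.10 and 12.06 in the palmitic acid, oleic acid, linoleic acid and control arrays. The Fc receptor gene Fcgr1 was the single macrophage marker beyond 1.5-fold of the control, at -0.66 with palmitic acid and 0.65 with oleic acid. With palmitic acid Mertk lay at 0.51, Cd14 at -0.26 and the other 7 between -0.15 and 0.04. Above the filter were also 8 of 10 mesothelial and fibroblast markers, 2 of 6 mast cell and eosinophil markers, and 1 each of the 4 measured B cell, 4 measured T and NK cell and 6 neutrophil markers. Of all 19938 genes, 11174 were. In all 4 arrays the counts were 7, 1, 1, 0 and 1 in that order. The mast cell marker Kit was at 6.85 with palmitic and oleic acid, 7.64 with linoleic acid and 7.30 in the control. Its differences were -0.79 for palmitic minus linoleic acid and 0.80 for linoleic minus oleic acid.

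In the palmitic acid array Fnip2, Nbr1, Ulk1, Atg14, Flcn and Atg13 were at least 1.5-fold above the control, and no gene of the 42 was 1.5-fold lower. Fnip2 and Flcn belong to the folliculin complex, Ulk1, Atg13 and Atg14 to the complexes that start autophagy, and Nbr1 is a cargo receptor. These 6 are 14.3% of the 42, where 2.17% of all 11174 genes above the filter were that much higher and 1.41% that much lower. The list was chosen with earlier results of these data known, so its shares are not those of a list drawn blind. The median difference of the 42 was 0.16, beside 0.001 for all genes. After a repeated quantile normalisation it was 0.10, beside -0.035 for all genes. Of the 42, 31 lay above 0, where 50.1% of all genes did, and 28 after a repeated quantile normalisation. The palmitic acid array was the highest of the 4 for 25 of the 42 genes (59.5%), against 30.5% of all genes. Fnip2 had rank 53 from the top among the 11174 genes, Nbr1 rank 121, Ulk1 rank 140, Atg14 rank 157, Flcn rank 180 and Atg13 rank 213. Just outside the threshold of 0.585 stood Fnip1 at 0.58, followed by Gabarapl1, Atg12 and Rb1cc1, each at 0.52, while Atg13 at 0.61 was the gene just inside.

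**Figure D1:**
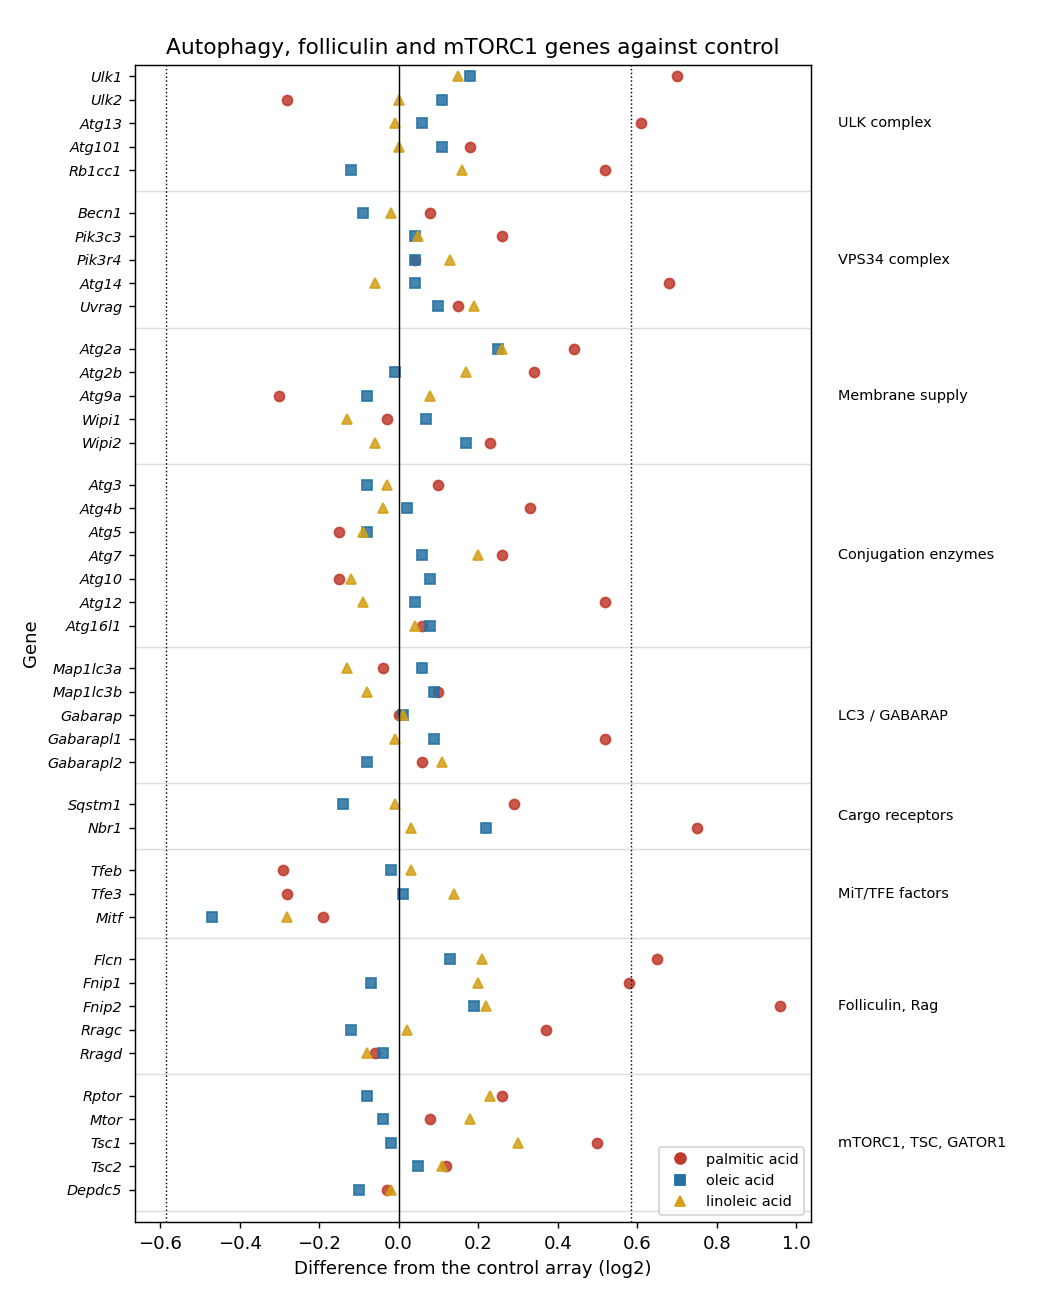
Difference in log2 value from the control array (x axis) of 42 genes (y axis) in palmitic acid (circles), oleic acid (squares) and linoleic acid (triangles) arrays, with dotted lines at 1.5-fold. Palmitic acid circles cross the upper line for Fnip2 (0.96), Nbr1 (0.75), Ulk1 (0.70), Atg14 (0.68), Flcn (0.65) and Atg13 (0.61), and no oleic or linoleic acid symbol crosses either line.

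Markers of other cells moved in the same array. Of the 10 mesothelial and fibroblast markers measured, 9 lay below the control with palmitic acid, while 50.1% of all genes above the filter lay above it. Krt19, under the filter, was at 0.03, and Upk3b, also under it, at -0.07. Pdgfrb lay at -1.29 and Pdgfra at -0.86, and the other markers below the control between -0.28 and -0.07. The robust SD of all genes in this comparison was 0.194. Pdgfrb was also beyond 1.5-fold below the control with oleic acid, at -0.71. Among the 8 above the filter, Msln at -0.15 was under the filter value in the palmitic and linoleic acid arrays. The summed linear signal of the 10 markers measured was 4227 with palmitic acid, 5136 with oleic acid, 5979 with linoleic acid and 5624 in the control. That of the 10 macrophage markers was 79051, 83942, 80077 and 80487 in the same order. In pooled RNA fewer cells of a type and less RNA per cell cannot be told apart, and the part of these cells in the differences of the 42 genes was not tested.

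The promoters of the 5 genes with the largest palmitic acid differences are shown because these genes were higher together, from 250 bases before to 50 bases after the transcription start (RefSeq, GRCm38.p6). They lie at chr3:79567630-79567929 (minus strand, Fnip2), chr11:101551857-101552156 and chr11:101552404-101552703 (plus strand, 2 starts of Nbr1), chr5:110810032-110810331 (minus, Ulk1), chr14:47568385-47568684 (minus, Atg14) and chr11:59809990-59810289 (minus, Flcn). Each is printed 5′ to 3′ on the gene's strand, with capitals marking a match to a searched motif.
Fnip2: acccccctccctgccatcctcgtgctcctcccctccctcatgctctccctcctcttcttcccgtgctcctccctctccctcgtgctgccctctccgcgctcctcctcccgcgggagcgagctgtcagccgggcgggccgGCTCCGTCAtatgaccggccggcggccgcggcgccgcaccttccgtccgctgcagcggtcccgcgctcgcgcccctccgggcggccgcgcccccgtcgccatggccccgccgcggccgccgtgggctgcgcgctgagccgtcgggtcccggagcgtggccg
Nbr1, upstream start: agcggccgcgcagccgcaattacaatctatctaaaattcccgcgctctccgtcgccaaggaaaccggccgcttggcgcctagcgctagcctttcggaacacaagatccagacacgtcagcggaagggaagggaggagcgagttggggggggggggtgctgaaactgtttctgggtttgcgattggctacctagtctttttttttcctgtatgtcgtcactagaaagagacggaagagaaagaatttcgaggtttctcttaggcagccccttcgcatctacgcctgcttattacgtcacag
Nbr1, downstream start: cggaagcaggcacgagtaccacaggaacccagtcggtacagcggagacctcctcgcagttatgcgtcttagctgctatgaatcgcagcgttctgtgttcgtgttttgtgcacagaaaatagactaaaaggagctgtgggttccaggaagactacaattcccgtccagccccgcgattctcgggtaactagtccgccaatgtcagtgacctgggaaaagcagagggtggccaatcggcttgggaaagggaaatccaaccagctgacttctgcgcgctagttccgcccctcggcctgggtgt
Ulk1: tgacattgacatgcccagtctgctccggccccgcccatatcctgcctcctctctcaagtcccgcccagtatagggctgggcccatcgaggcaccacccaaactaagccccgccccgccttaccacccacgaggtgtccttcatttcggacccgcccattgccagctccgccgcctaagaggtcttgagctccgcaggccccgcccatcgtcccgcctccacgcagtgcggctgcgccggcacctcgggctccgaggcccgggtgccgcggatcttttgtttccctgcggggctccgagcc
Atg14: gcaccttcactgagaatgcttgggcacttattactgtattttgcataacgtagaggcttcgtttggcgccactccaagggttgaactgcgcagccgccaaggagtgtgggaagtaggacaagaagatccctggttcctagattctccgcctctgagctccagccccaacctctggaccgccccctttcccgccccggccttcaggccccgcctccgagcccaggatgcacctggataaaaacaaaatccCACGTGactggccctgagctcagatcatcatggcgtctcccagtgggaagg
Flcn: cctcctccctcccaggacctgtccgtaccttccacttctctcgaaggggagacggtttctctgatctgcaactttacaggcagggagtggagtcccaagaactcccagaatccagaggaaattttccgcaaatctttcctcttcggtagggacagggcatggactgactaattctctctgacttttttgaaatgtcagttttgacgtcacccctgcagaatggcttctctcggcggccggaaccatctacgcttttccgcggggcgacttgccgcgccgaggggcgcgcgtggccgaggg

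A total of 4 motifs were searched on both strands. CACGTG is the E-box that TFEB, TFE3 and related factors bind, and TCACGTGA, which contains it, is the core of the lysosomal gene element. TGATGNAA is the element bound by ATF4 or CHOP with C/EBP partners, and TGACNNNGC is the core of the antioxidant response element bound by NRF2. Among the printed promoters, Atg14 held a CACGTG that spans its start, from base -1 to base 5, and Fnip2 held GCTCCGTCA, a match to TGACNNNGC on the opposite strand from base -111 to base -103. The printed promoters of Nbr1, Ulk1 and Flcn held no match.

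RefSeq promoters were available for 37 of the 43 genes, 43 promoters in all. CACGTG occurred in 14.0% of them (Atg14, Atg3, Atg5, Atg7, Fnip1 and Rragc) and in 7.15% of all 32851 promoters of the same length. TCACGTGA occurred in the Atg3 promoter, and in 0.97% of all promoters. TGACNNNGC occurred in 11.6% (Ulk2, Atg13, Map1lc3b, Mitf and Fnip2) against 12.39% of all. TGATGNAA occurred in 0 of the 43 and in 3.97% of all. A match is a run of letters in this window and not a shown binding site.

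In the initiation machinery, 9 of 10 genes were above the control with palmitic acid, where 50.1% of all genes were. After a repeated quantile normalisation 8 of the 10 were above it. At least 1.5-fold higher were 3 of the 10, beside 2.17% of all genes, and the median was 0.22. Ulk1, the kinase that starts autophagy, lay at log2 9.32 with palmitic acid, 8.80 with oleic acid, 8.77 with linoleic acid and 8.62 in the control. Atg13, the regulatory subunit that mTORC1 phosphorylates, had 11.24 with palmitic acid, 10.69 with oleic acid, 10.62 with linoleic acid and 10.63 in the control. Rb1cc1, which codes for the scaffold FIP200, had 9.14 with palmitic acid, 8.51 with oleic acid, 8.78 with linoleic acid and 8.62 in the control. For these 3 subunits the palmitic acid array stood alone at the top. Differences from the control were 0.70 for Ulk1 (1.63-fold), 0.61 for Atg13 (1.52-fold) and 0.52 for Rb1cc1. Ulk2, the paralog of Ulk1, lay the other way at -0.28 with palmitic acid, and Atg101, the partner that stabilises Atg13, at 0.18.

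Within the VPS34 complex only Atg14 stood out among the 5 genes measured. Atg14, the subunit that directs the kinase to autophagosome formation, had 8.61 with palmitic acid, 7.97 with oleic acid, 7.86 with linoleic acid and 7.93 in the control. The 3 lower arrays lay within 0.10 of each other, and palmitic acid was 0.68 above the control (1.60-fold). The shared subunits were closer to the control, with Pik3c3, the lipid kinase itself, at 0.26, Becn1 at 0.08 and the scaffold Pik3r4 at 0.04. Uvrag, which takes the place of Atg14 in a second form of the complex, lay at 0.15 with palmitic acid and at 0.19 with linoleic acid.

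None of the 17 genes of membrane supply and conjugation was 1.5-fold above the control with palmitic acid, where 2.17% of all genes were. In a list of this size 0 is near that share. The median of the 17 was 0.10. The highest were Atg12, a ubiquitin-like protein, and Gabarapl1, an ATG8 family protein. Atg12 had 9.68 with palmitic acid, 9.20 with oleic acid, 9.07 with linoleic acid and 9.16 in the control. Gabarapl1 had 11.87 with palmitic acid, 11.44 with oleic acid, 11.34 with linoleic acid and 11.35 in the control. Both were highest with palmitic acid, by 0.48 and 0.43 over the oleic acid array. The partners of Atg12 in conjugation differed less, with Atg7, the activating enzyme, at 0.26, Atg3, an E2-like enzyme, at 0.10, Atg16l1 at 0.06, and Atg5 and the E2-like enzyme Atg10 at -0.15 each. Atg4b, the protease that trims LC3 and GABARAP proteins, lay at 0.33.

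The other ATG8 family genes stayed near the control with palmitic acid, Map1lc3b at 0.10, Gabarapl2 at 0.06, Gabarap at 0.00 and Map1lc3a at -0.04. Gabarap, at log2 13.52 or 13.53 in all 4 arrays, lies close to the top of the measured range, 14.44. There differences were small in general, with a robust SD of 0.082 among 153 genes at or above log2 13, against 0.194 among all genes. Its value therefore does not show that the transcript was unchanged. Gabarapl2 is the mean of 2 probes that disagree, at -0.09 in the brighter and 0.22 in the dimmer with palmitic acid.

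Of the genes that supply membrane lipid, Atg2a, a lipid transfer protein, was the most variable. Its values were 8.50 with palmitic acid, 8.32 with oleic acid, 8.32 with linoleic acid and 8.06 in the control, so that the control was the lowest array and the 3 fatty acids lay above it. Atg2b, its paralog, was 0.34 above the control with palmitic acid and -0.01 with oleic acid, a mean of probes at -0.18 and 0.15. The phosphoinositide effectors Wipi2 and Wipi1 were at 0.23 and -0.03 with palmitic acid, and the scramblase gene Atg9a, at -0.30, was the lowest of the 42 genes.

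Both measured cargo receptors were highest with palmitic acid. Nbr1, which captures ubiquitinated cargo, had 10.13 with palmitic acid, 9.60 with oleic acid, 9.41 with linoleic acid and 9.38 in the control. Palmitic acid exceeded the control by 0.75 (1.68-fold), and oleic acid lay between at 0.22. Sqstm1, which codes for p62, had 13.74 with palmitic acid, 13.31 with oleic acid, 13.45 with linoleic acid and 13.46 in the control. Palmitic acid differed from the control by 0.29 and from oleic acid by 0.43. Sqstm1 lies above log2 13 like Gabarap, where differences were small in general. Among the 153 genes there its palmitic acid difference had rank 7 from the top against the control. Against oleic acid the rank was 2 and against linoleic acid 5. Whether these differences are compressed was not tested.

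**Figure D2:**
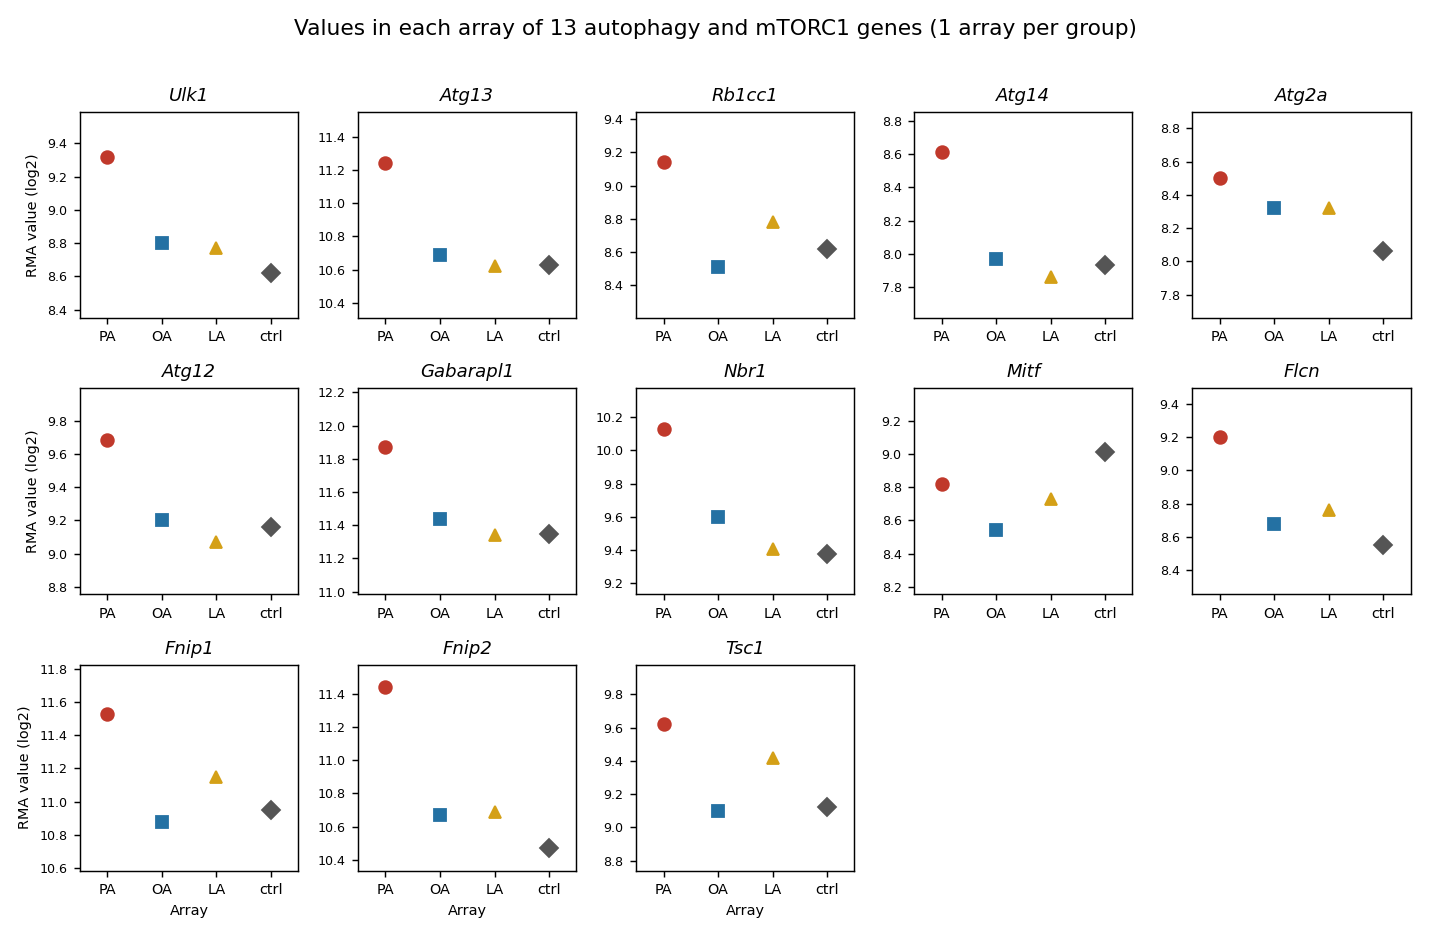
Deposited log2 value (y axis, of equal length in each panel and not starting at 0) in the palmitic acid (PA), oleic acid (OA), linoleic acid (LA) and control (ctrl) arrays (x axis) for the 9 genes at least 1.5-fold apart in any comparison and the gene with the widest range in each of the 9 subgroups. Each symbol is 1 array. In every panel but that of Mitf the palmitic acid array is the highest, as for Fnip2 at 11.44 against 10.47 in the control. The choice of panels favours this, because every 1.5-fold difference among the 42 genes had palmitic acid higher. Over all 42 genes the palmitic acid array was the highest for 25 and the lowest for 6.

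Fnip2, a folliculin partner, differed most of the 42 genes with palmitic acid. It had 11.44 with palmitic acid, 10.67 with oleic acid, 10.69 with linoleic acid and 10.47 in the control. Flcn, folliculin itself, had 9.20 with palmitic acid, 8.68 with oleic acid, 8.76 with linoleic acid and 8.55 in the control. Fnip1 had 11.53 with palmitic acid, 10.88 with oleic acid, 11.15 with linoleic acid and 10.95 in the control. All 3 parts of the complex were thus highest with palmitic acid, by 0.96 (1.95-fold), 0.65 (1.57-fold) and 0.58 (1.49-fold) over the control. Fnip2 and Flcn were lowest in the control array, whereas Fnip1 was lowest with oleic acid. Rragc, the Rag GTPase on which folliculin acts, was at 0.37 with palmitic acid, and its paralog Rragd at -0.06. Rragd was dim, at 7.58 with palmitic acid and 7.63 in the control, beside the filter value of 7.09.

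Tfeb and Tfe3, which code for transcription factors kept in the cytoplasm through folliculin and mTORC1, lay below the control with palmitic acid. Tfeb had 8.37 with palmitic acid, 8.64 with oleic acid, 8.69 with linoleic acid and 8.66 in the control. Tfe3 had 10.62 with palmitic acid, 10.91 with oleic acid, 11.04 with linoleic acid and 10.90 in the control. Palmitic acid was the lowest array for both, at -0.29 and -0.28 from the control, and neither reached 1.5-fold. Transcript levels do not measure where these proteins are in the cell.

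Mitf, the third factor, had 8.82 with palmitic acid, 8.54 with oleic acid, 8.73 with linoleic acid and 9.01 in the control, as the mean of 2 probes. These probes disagree. The brighter probe lay at 11.72, 11.51, 11.75 and 11.60 in the palmitic acid, oleic acid, linoleic acid and control arrays. The dimmer probe, which is under the filter value, lay at 5.93, 5.58, 5.72 and 6.42. Oleic acid minus control was -0.09 in the brighter and -0.85 in the dimmer probe, and palmitic acid minus control was 0.12 and -0.49. No direction is therefore given for Mitf.

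Among mTORC1 and its brakes, Tsc1, which restrains mTORC1 as part of the TSC complex, varied most. It had 9.62 with palmitic acid, 9.10 with oleic acid, 9.42 with linoleic acid and 9.12 in the control. Palmitic and linoleic acid were thus both above the control, by 0.50 and 0.30, while oleic acid lay at -0.02. Rptor, the mTORC1 scaffold, showed the same pattern at 0.26, -0.08 and 0.23 for palmitic, oleic and linoleic acid. The kinase gene Mtor was at 0.08, -0.04 and 0.18 in that order, Tsc2, the partner of Tsc1, at 0.12, 0.05 and 0.11, and Depdc5, a subunit of the GATOR1 brake, at -0.03, -0.10 and -0.02. Linoleic minus oleic acid was 0.32 for Tsc1 and for Rptor and 0.22 for Mtor, and 0.27, 0.26 and 0.16 after centring of the arrays. It was 0.07 for Depdc5 and 0.06 for Tsc2, and 0.02 and 0.00 after centring.

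Against the control, oleic acid left all 42 genes inside 1.5-fold. This is 0 of 42 either way, where 0.376% of all genes were that much higher and 0.34% that much lower. Differences ran from -0.47 (Mitf, the mean of its disagreeing probes) to 0.25 (Atg2a), the median was 0.04, beside 0.015 for all genes, and 30 of the 42 (71.4%) lay within 0.1 of the control, as did 59.8% of all genes. Nbr1 (0.22), Fnip2 (0.19) and Ulk1 (0.18) were the highest after Atg2a. Sqstm1, Rb1cc1 and Rragc were below the control, at -0.14, -0.12 and -0.12.

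Linoleic acid also placed 0 of the 42 genes beyond 1.5-fold of the control, where 0.0358% of all genes were higher and 0.0358% lower. Tsc1 (0.30), Atg2a (0.26), Rptor (0.23), Fnip2 (0.22) and Flcn (0.21) were the highest, and Wipi1 and Map1lc3a (-0.13 each) the lowest apart from Mitf. The Mitf mean of -0.28 joins a brighter probe at 0.15 and a dimmer one, under the filter value, at -0.71. The median was 0.02, beside 0.042 for all genes, and 24 of the 42 lay above 0, where 65.2% of all genes did. The median became -0.01 after centring of the arrays and after a repeated quantile normalisation, beside 0.006 and -0.003 for all genes. The 3 comparisons with the control share that array, which was the lowest array for Fnip2, Ulk1, Flcn and Atg2a, so that their values with the 3 fatty acids are not independent.

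**Figure D3:**
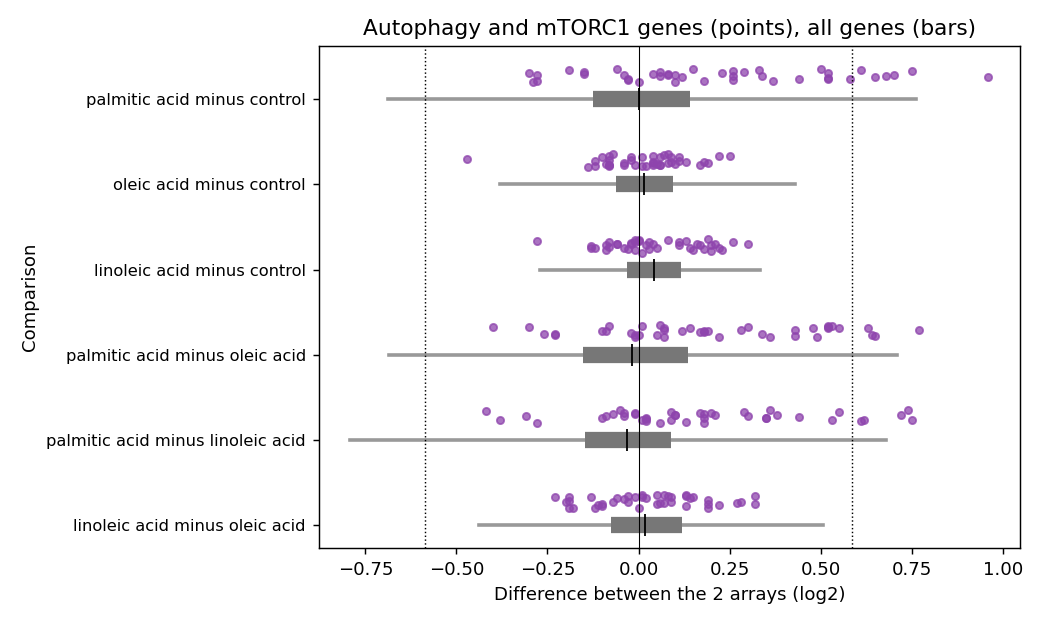
Difference in log2 between 2 arrays (x axis) for 6 comparisons (y axis). Points are the 42 genes, spread vertically for sight, thick bars the middle 50% of all 11174 genes above the filter, thin bars their 1st to 99th percentile and ticks their median. Points pass the upper 1.5-fold line (dotted) in the 3 comparisons that put palmitic acid first, 6 against the control, 4 against oleic acid and 5 against linoleic acid, and none passes the lower line.

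The fatty acids were given at the same concentration and time, and were compared directly in 3 pairs. Between palmitic acid and oleic acid, which has 2 more carbons and 1 double bond, the palmitic acid array was at least 1.5-fold higher for 4 of the 42 genes, beside 1.82% of all genes. None was 1.5-fold lower, beside 1.66% of all genes. The 4 were Fnip2 (0.77), Fnip1 (0.65), Atg14 (0.64) and Rb1cc1 (0.63). Just under the threshold were Atg13 (0.55), Nbr1 (0.53), Ulk1 (0.52), Flcn (0.52) and Tsc1 (0.52). The median was 0.17, against -0.019 for all genes, and Ulk2 was lowest at -0.40.

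Between palmitic acid and linoleic acid, which has 2 double bonds, 5 genes were higher by 1.5-fold or more in the palmitic acid array, beside 1.58% of all genes, and 0 lower, beside 2.01%. These were Fnip2 (0.75), Atg14 (0.74), Nbr1 (0.72), Atg13 (0.62) and Atg12 (0.61). Flcn was at 0.44, Fnip1 at 0.38 and Rb1cc1 at 0.35, and for these 3 genes the linoleic acid array was above the oleic acid array. Tfe3 (-0.42), Atg9a (-0.38) and Tfeb (-0.31) were the lowest. Fnip2 and Atg14 were the only genes of the 42 that were 1.5-fold higher or more with palmitic acid than in each of the other 3 arrays, as were 105 of the 11174 genes.

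Linoleic acid has 1 double bond more than oleic acid at an equal chain length. Of the 42 genes, 0 were beyond 1.5-fold, beside 0.707% of all genes higher and 0.34% lower with linoleic acid. Differences ran from -0.23 (Wipi2) to 0.32 (Tsc1 and Rptor), with Rb1cc1 at 0.28 and Fnip1 at 0.27. The median was 0.04, beside 0.018 for all genes, and it was -0.02 after centring of the arrays and 0.00 after a repeated quantile normalisation. No interval of these differences can be had, so that their size does not show that the fatty acids act alike.

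Other genes of these pathways, listed from general knowledge but with earlier results of these data known, were set beside the 42. Of 32 further autophagy genes 2 (6.2%) were higher by 1.5-fold or more with palmitic acid than in the control, beside 2.17% of all genes. None was that much lower, beside 1.41% of all genes, and the list median was 0.12. Plekhm1, an adaptor that joins autophagosomes to lysosomes, had 10.63 with palmitic acid, 9.84 with oleic acid, 9.84 with linoleic acid and 9.58 in the control. Dapk1, a kinase that phosphorylates Beclin 1, had 11.01 with palmitic acid, 10.09 with oleic acid, 10.61 with linoleic acid and 10.37 in the control. Plekhm1 was highest with palmitic acid and lowest in the control, as were Fnip2, Ulk1, Nbr1, Flcn and other genes.

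Of 35 further genes above the filter that carry amino acid and energy signals to mTORC1, 1 was beyond 1.5-fold with palmitic acid. It was Sesn2, a leucine sensor that acts through GATOR2, at 1.33. This is 2.9% of the list, near the 2.17% of all genes that were higher. The list median was -0.02. Ddit4, another stress-induced brake on mTORC1, was at 0.00, and Rraga, the partner of RagC, at 0.34. None of 20 lysosomal genes known as TFEB targets was 1.5-fold apart with palmitic acid, with a median of 0.01. Of all genes 2.17% were higher and 1.41% lower, so that 0 of 20 is near these shares. Mcoln1, a lysosomal cation channel, lay at 0.05, and 8 of the 20 were at or above log2 13, where differences were small in general. TFEB targets outside this list were not set apart, so the list does not stand for TFEB targets as a whole.

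**Figure D4:**
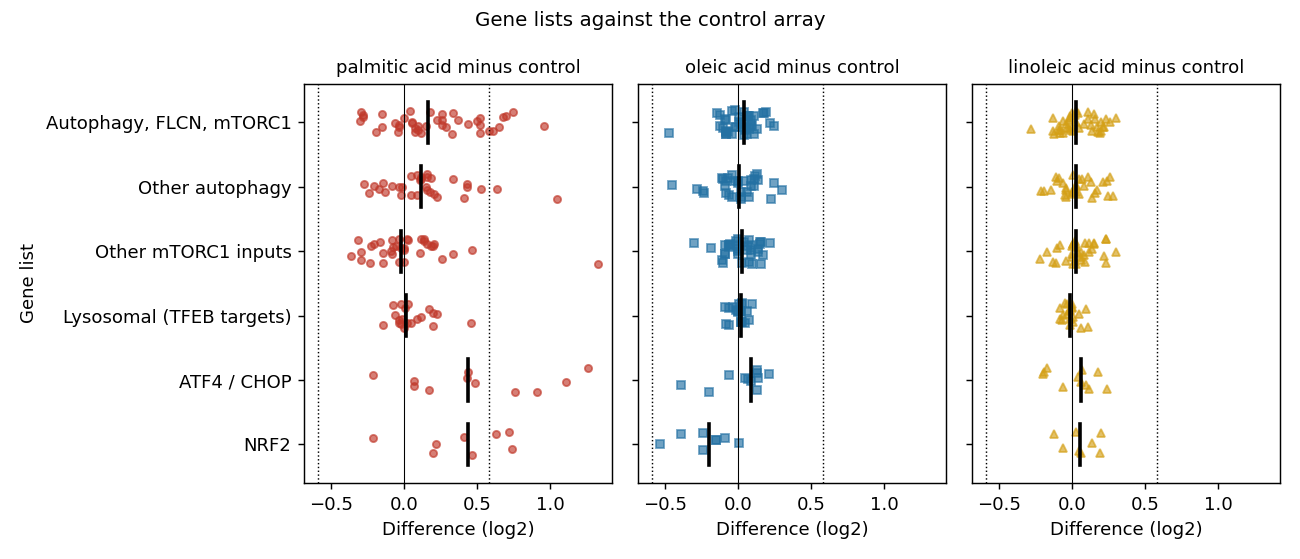
Difference in log2 from the control array (x axis) of the 42 autophagy, folliculin (FLCN) and mTORC1 genes and of 5 other gene lists (y axis), in panels for palmitic, oleic and linoleic acid. Points are genes above the filter, black ticks list medians and dotted lines 1.5-fold. With palmitic acid the medians are 0.16 for the 42 genes, 0.01 for lysosomal genes and 0.44 for the ATF4 and the NRF2 list.

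Stress response genes, listed in the same way, also differed in the palmitic acid array. Of 11 ATF4 and CHOP branch genes 4 (36.4%) were 1.5-fold higher than in the control, beside 2.17% of all genes. Their median was 0.44, with Ddit3 (CHOP) at 0.91 and Atf4 at 0.43. Of 8 NRF2 genes 3 (37.5%) were that much higher, with a median of 0.44, Srxn1 at 0.74 and Hmox1 at 0.63. With oleic acid the NRF2 median was -0.20, and Sqstm1, an NRF2 target, was at -0.14. The part of these responses in the differences of the 42 genes was not tested.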

How the data were processed

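Total RNA was pooled from 3 samples per group and labelled for 1 Affymetrix array each, per the labels' protocols. The deposited log2 values were made by the authors with RMA (background correction, quantile normalisation and probe summary), per the submitters' processing notes. The log2 scale was read from their range, 2.28 to 14.44. The RMA version was not given in the sources used here, nor was a genome build.

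Of 35556 probes, 21789 had exactly 1 gene in the platform annotation, 1621 several and 12146 none. Probes were averaged per gene (19938 genes). Genes whose highest value reached the median of all values were kept (11174). Differences were taken for 6 comparisons, and genes at least 1.5-fold apart were counted (Python 3.11.15, pandas 2.3.3). The counting was tested on simulated data. The number of arrays limits the precision. Probes of gene families can bind related transcripts. The genes, lists, threshold and motifs were chosen with earlier results of these data known. Every listed gene with a probe is named, with all 4 values for those 1.5-fold apart or widest in their subgroup. The 7 alternatives cover scaling, filter, probe choice and a floor.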

Additional observations from a re-analysis of the deposited data

How the results depend on the processing

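The counts beyond 1.5-fold and the medians of the 42 genes in the 6 comparisons were recomputed under 7 alternatives, giving 126 values. All 126 stayed within 1.5 times the count or within 0.1 of the median. Part of this was fixed in advance. All 42 genes lay above the filter in all 4 arrays, so dropping it, applying it to the mean or using a floor could not change them. Many counts were 0 in every setting. The tolerance is also wide beside these medians. With palmitic acid the median fell from 0.16 to 0.10 under the repeated quantile normalisation and still passed. With palmitic acid, 7 genes were higher than in the control after centring of the arrays, 5 after a repeated quantile normalisation, and 5 of the 31 genes left by the stricter filter. The shares of all genes in these settings were 2.24%, 1.76% and 3.31%. Fnip1 came to 0.59 under centring, and Atg13 to 0.57 and Rb1cc1, against oleic acid, to 0.56 under the repeated quantile normalisation. The brightest probe in place of the mean gave Mitf 0.12 and Gabarapl2 -0.09 with palmitic acid. No paired analysis was possible because each group is 1 array. Differences were smaller among genes near the top of the signal range, and whether the scale compresses them was not tested.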

Other observations

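Some single genes of the other lists are given here. Trp53inp2, which codes for a protein that promotes autophagosome formation, lay at 10.79 with palmitic acid, 10.58 with oleic acid, 11.17 with linoleic acid and 11.03 in the control. Linoleic minus oleic acid was 0.59. Atp6v1h, a subunit of the lysosomal proton pump, was at 0.46 with palmitic acid, the highest of the 20 lysosomal genes.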
